A study of Mus musculus with 8 samples.

Results

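Sox10, Foxd3, Sox2, Erbb3, Ednrb, Nes and Mitf are 7 regulators and markers of the neural crest and of the glial cells that arise from it, and they were read out here in cultured mouse dermal fibroblasts with and without a deletion of Tgfb1. The 7 genes were taken by symbol from the 15111 genes of the deposited table, and each symbol had 1 entry. They were chosen from earlier results on these same libraries, in which the difference between the groups was already known. The levels and differences of the 7 genes are therefore given as a description with no p-value, and the calls they received in the fit over the whole table are part of that description and support nothing.

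Primary dermal fibroblasts came from adult mice fed tamoxifen, and were kept for 72 h on fibronectin without serum before bulk RNA-seq of poly-A RNA. Both groups carried floxed Tgfb1 alleles (Tgfb1 fl/fl). TGFβ1FKO fibroblasts (Tgfb1 fl/fl:Col1a2-CreERT, 4 libraries) also carried CreERT, a recombinase that tamoxifen switches on, driven by the Col1a2 promoter of collagen-producing cells, whereas control fibroblasts (4 libraries) had no Cre. An effect of Cre itself and the effect of the deletion cannot be told apart in this design. The labels do not say whether each library came from a separate mouse, so spreads and p-values cover only the differences between these libraries.

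The neural crest is a migratory cell population of the embryo that gives rise to Schwann cells, the other glia of the peripheral nerves, sensory and autonomic neurons and the melanocytes of the skin. SOX10 and FOXD3 are transcription factors that hold crest cells in a progenitor state, and SOX10 stays on in glia and melanocytes. ERBB3 receives the neuregulin signal on which Schwann cell precursors depend, EDNRB receives endothelin 3, and MITF directs the melanocyte fate. In adult skin these genes are known above all from the Schwann cells of nerve endings, from melanocytes and from progenitors in hair follicles.

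Depth was similar, with 16988998 to 21806579 recovered reads on the listed genes in the controls and 17445002 to 23071528 in the TGFβ1FKO libraries. No library was a copy of another of its group, since counts differed beyond sampling noise in each pair (chi-square of 5.14 to 21.02 per degree of freedom). The fibroblast label held, as all 11 fibroblast markers were present, and Col1a1, a chain of type I collagen, stood at 99572 normalised counts per kb of exon in controls. Tgfb1, the targeted gene, ranged from 1298 to 1482 normalised counts in controls and from 228 to 326 in TGFβ1FKO libraries (log2 fold change -2.31, SE 0.10, adjusted p = 1.53e-07, limma with Benjamini-Hochberg adjustment). A normalised count is the number of reads on a gene after scaling each library for its sequencing depth.

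Promoter sequence was available for 5 of the 7 genes, and Mitf had 3 windows. Counts per gene do not separate the Mitf starts, so which of them was in use is not known. The 250 bases before the RefSeq start on GRCm38.p6 are shown for 3 genes that were lower in TGFβ1FKO fibroblasts (Foxd3, Sox2 and Nes) and for the third start of Mitf, the gene that was not lower. They are printed 5′ to 3′ on the plus strand, and capitals mark matches on either strand to the searched motifs. The RefSeq start of Sox2 lies upstream of the one in the GENCODE annotation used for positions.
Foxd3, chr4:99656049-99656298: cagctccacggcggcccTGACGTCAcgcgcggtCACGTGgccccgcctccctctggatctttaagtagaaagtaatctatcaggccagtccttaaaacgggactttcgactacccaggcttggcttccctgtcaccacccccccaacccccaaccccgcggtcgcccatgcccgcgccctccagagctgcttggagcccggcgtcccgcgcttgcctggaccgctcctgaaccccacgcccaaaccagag
Sox2, chr3:34649745-34649994: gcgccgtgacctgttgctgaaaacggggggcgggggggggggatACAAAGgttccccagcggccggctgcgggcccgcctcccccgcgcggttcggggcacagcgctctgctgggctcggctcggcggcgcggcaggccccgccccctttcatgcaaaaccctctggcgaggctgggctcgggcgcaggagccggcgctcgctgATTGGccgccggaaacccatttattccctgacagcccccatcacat
Nes, chr3:87970843-87971092: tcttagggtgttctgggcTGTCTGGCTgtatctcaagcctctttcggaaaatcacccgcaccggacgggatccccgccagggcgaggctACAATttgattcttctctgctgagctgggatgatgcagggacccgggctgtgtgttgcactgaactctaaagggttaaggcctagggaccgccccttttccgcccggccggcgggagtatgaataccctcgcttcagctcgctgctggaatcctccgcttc
Mitf, chr6:97991533-97991782: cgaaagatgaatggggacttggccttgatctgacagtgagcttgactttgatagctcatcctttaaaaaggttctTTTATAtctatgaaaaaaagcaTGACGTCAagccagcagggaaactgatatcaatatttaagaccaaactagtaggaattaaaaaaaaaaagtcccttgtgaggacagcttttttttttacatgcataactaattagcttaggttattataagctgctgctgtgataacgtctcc

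A set of 12 motifs was searched on both strands in the 250 bases before each of 32851 mouse starts, and some of them contain or overlap one another. SOX-type letters were found in the following shares of all windows: ACAAT in 27.7%, ACAAAG in 16.5%, ACAATG in 10.7% and AACAATG in 3.29%. Of the E-boxes that MITF can read, CATGTG was in 12.3% and CACGTG in 6.02% of windows. SMAD-type letters were in 17.1% (CAGACA), 1.05% (AGCCAGAC) and 0.167% (GTCTAGAC) of windows. The cAMP response element TGACGTCA was in 1.55%, CCAAT in 33.8% and TATAAA in 12.4%.

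The Foxd3 and Mitf windows shared the full element TGACGTCA, which began 233 bases before the Foxd3 start and 153 bases before the third Mitf start. Foxd3 also held CACGTG, 217 bases before its start. The Sox2 window held ACAAAG 206 bases before its start and a reversed CCAAT, and the Nes window held ACAAT and overlapping reversed AGCCAGAC and CAGACA. Ednrb held only a pair of reversed CCAAT matches. The first Mitf window held none of the 12 motifs, and the second held CAGACA and a reversed CCAAT. These are matches of letters and say nothing of whether a factor binds there. Guanine and cytosine made up 65.6% of the Foxd3 window, 72.0% of that of Sox2, 58.8% of that of Nes and 56.8% of that of Ednrb, against a median of 52.4% over all windows. The first and second Mitf windows were at 59.6% and 58%, and only the third stood apart, at 36.0%.

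Of the 7 genes, 6 were lower in TGFβ1FKO than in control fibroblasts and Mitf was not. In 5 of them (Sox10, Foxd3, Sox2, Erbb3 and Nes) every TGFβ1FKO library lay below every control library, a pattern seen in 2.10% of all genes tested. A gene was called when limma's moderated test gave an adjusted p under 0.05 together with a log2 fold change beyond 0.6 in either direction. By this rule 2 of the 7 genes, Sox10 and Foxd3, were called lower, against 0.0794% of all genes called lower and 0.0860% called in either direction. Since the genes were chosen from this same contrast, nothing is read from these counts. Their median log2 fold change was -2.21, beside a median of 0.003 over all genes. In bulk RNA, fewer cells of a type and less RNA per cell cannot be told apart.

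**Figure D1:**
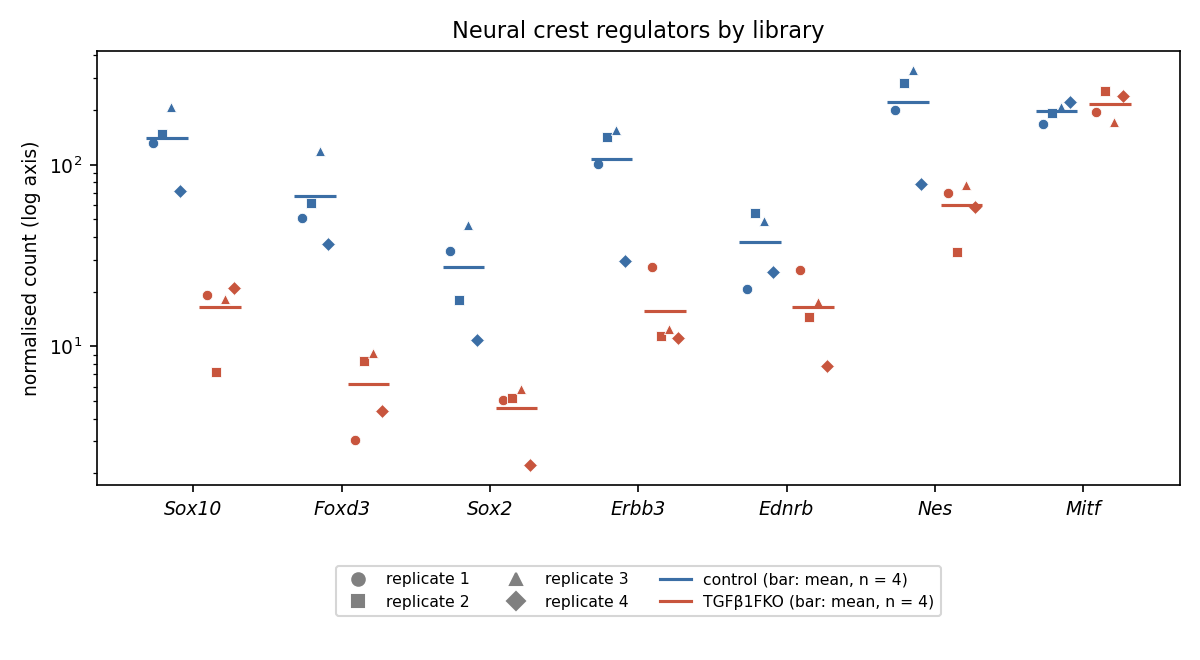
Normalised count of each of the 7 genes (log axis) in the 4 control libraries (blue) and the 4 TGFβ1FKO libraries (red), with marker shapes for replicate numbers and bars for group means. Colours are separate for Sox10, Foxd3, Sox2, Erbb3 and Nes and interleave for Ednrb and Mitf, and the blue diamond of control replicate 4 is the lowest control for the first 4 genes and for Nes.

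Sox10 (ENSMUSG00000033006) is the SOX factor that specifies peripheral glia. It lies on the minus strand at chr15:79154908-79165240 of GRCm38, with 3051 exonic bases. Its normalised counts were 132, 148, 207 and 72.1 in control replicates 1 to 4 and 19.3, 7.25, 18.3 and 21.1 in TGFβ1FKO replicates 1 to 4. The lowest control library was thus still above the highest TGFβ1FKO library. The means were 139.9 ± 55.6 (SD, n = 4) and 16.5 ± 6.25 (SD, n = 4), which left 11.8% of the control level (log2 fold change -3.01, SE 0.35). In the order of log2 fold changes from the lowest it ranked 4 of 15111 genes, although it rested on only 7 to 22 reads per TGFβ1FKO library against 73 to 187 in controls.

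Foxd3 (ENSMUSG00000067261) encodes a forkhead repressor of the premigratory crest and is a gene of 1 exon at chr4:99656299-99658622 on the plus strand. Its normalised counts were 50.8, 61.6, 119.8 and 36.5 in the controls and 3.04, 8.28, 9.13 and 4.43 in the TGFβ1FKO libraries. Again the groups were apart, and the highest control stood 3.28-fold above the lowest. The means of 67.2 ± 36.5 (SD, n = 4) and 6.22 ± 2.95 (SD, n = 4) gave a log2 fold change of -3.20 (SE 0.40), the lowest in the whole table with a pseudocount of 1 and all 8 libraries. Sox10 was lower than Foxd3 with a pseudocount of 5 (-2.72 against -2.60), without TGFβ1FKO replicate 1 (-3.12 against -2.95) and without TGFβ1FKO replicate 4 (-3.16 against -3.10). The TGFβ1FKO libraries held 3 to 11 reads each, at or a little above the floor of 3 reads taken for counting error, so the remaining 9.26% of the control level is known only roughly. A miRNA gene, Gm23366, lies inside the Foxd3 exon on the same strand, and reads on it cannot be told apart from those of Foxd3.

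Sox2 (ENSMUSG00000074637), also of 1 exon, encodes a SOX factor of neural progenitors and immature Schwann cells and lies at chr3:34650405-34652461 within the long non-coding gene Sox2ot, whose exons it does not touch. It was the scarcest of the 3 factors, with 33.6, 18.1, 46.6 and 10.9 normalised counts in the controls and 5.07, 5.18, 5.81 and 2.22 in the TGFβ1FKO libraries. The groups did not overlap, but the lowest control rested on 11 reads and the TGFβ1FKO libraries on 2 to 7. The mean went from 27.3 ± 16.0 (SD, n = 4) to 4.57 ± 1.60 (SD, n = 4), a log2 fold change of -2.21 (SE 0.45). Among the TGFβ1FKO libraries the spread of Sox2 (coefficient of variation 35.1%) was no wider than counting alone would give (45.9%).

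Mitf (ENSMUSG00000035158), the basic helix-loop-helix factor of melanocytes, was the exception. It spans chr6:97807052-98021349 on the plus strand and has several starts that counts per gene do not separate. Normalised counts were 168, 193, 208 and 221 in the controls and 195, 254, 172 and 240.4 in the TGFβ1FKO libraries. The groups overlapped, and the log2 fold change was 0.11 (SE 0.14), from 197.7 ± 23.0 to 215 ± 38.4 (SD, n = 4 each). Mitf also varied least among controls, with a coefficient of variation of 11.6% against 39.7% for Sox10, 54.4% for Foxd3 and 58.6% for Sox2. A pseudogene, Gm15531, lies in a Mitf intron on the other strand.

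Erbb3 (ENSMUSG00000018166) encodes the neuregulin receptor that signals by pairing with ERBB2, and lies at chr10:128567523-128589652 on the minus strand, with 28 exon blocks. Normalised counts were 101, 142, 155 and 29.6 in the controls and 27.4, 11.4, 12.5 and 11.1 in the TGFβ1FKO libraries. The gap between the groups was narrow, since control replicate 4 and TGFβ1FKO replicate 1 were only 30 and 27 reads deep. The means of 107 ± 56.6 and 15.6 ± 7.88 (SD, n = 4 each) left 14.6% of the control level, at a log2 fold change of -2.56 (SE 0.46).

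Ednrb (ENSMUSG00000022122), an endothelin receptor of the neural crest, lies at chr14:103814625-103844402 on the minus strand. Its normalised counts were 20.6, 54.2, 48.8 and 25.7 in the controls and 26.4, 14.5, 17.4 and 7.76 in the TGFβ1FKO libraries. Here the groups overlapped, as TGFβ1FKO replicate 1 lay above control replicates 1 and 4. The mean went from 37.3 ± 16.6 to 16.5 ± 7.71 (SD, n = 4 each), 44.2% of the control level, and the log2 fold change was -1.13 (SE 0.39).

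Nes (ENSMUSG00000004891) encodes nestin, an intermediate filament protein of neural stem and progenitor cells that glial precursors also carry, and lies at chr3:87971078-87980451 on the plus strand. It had the most reads of the 6 lower genes, with 199.6, 280.5, 330.4 and 78.0 normalised counts in the controls and 69.9, 33.1, 77.2 and 58.7 in the TGFβ1FKO libraries. The groups were separate by less than 1 normalised count, since control replicate 4 nearly reached TGFβ1FKO replicate 3. The means were 222 ± 110.2 and 59.8 ± 19.3 (SD, n = 4 each), a log2 fold change of -1.76 (SE 0.38).

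Sox10, Foxd3, Erbb3 and Nes ranked the control libraries alike, with replicate 4 lowest, then 1, 2 and 3, an order found in 582 of the 15111 genes (3.85%) and in 5 of the 12 genes called lower. Control replicate 4 was the lowest control for 5 of the 7 genes, for 28.5% of all genes and for 10 of the 12 genes called lower, Sox10 and Foxd3 among them, and control replicate 3 was the highest for 5. Sox2 kept replicates 4 and 3 at the ends, Ednrb was lowest in replicate 1 and highest in replicate 2, and Mitf was highest in replicate 4. The 6 genes without Mitf together summed to 538, 704, 908 and 253 normalised counts in control replicates 1 to 4 and to 151, 79.7, 140.3 and 105 in the TGFβ1FKO libraries. Thus the lowest control sum was above the highest TGFβ1FKO sum, while the controls differed among themselves.

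Among the TGFβ1FKO libraries no such order was shared, apart from Erbb3 and Ednrb, which both ran from replicate 4 through 2 and 3 to 1. Each library there held few reads of these genes. For Foxd3 in TGFβ1FKO fibroblasts, counting alone would give a coefficient of variation of 39.2% where 47.4% was measured. In controls the measured spread was wider than counting for all 7 genes. For Sox10 it was 39.7% against 8.51%, for Erbb3 52.9% against 9.75% and for Nes 49.6% against 6.77%.

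**Figure D2:**
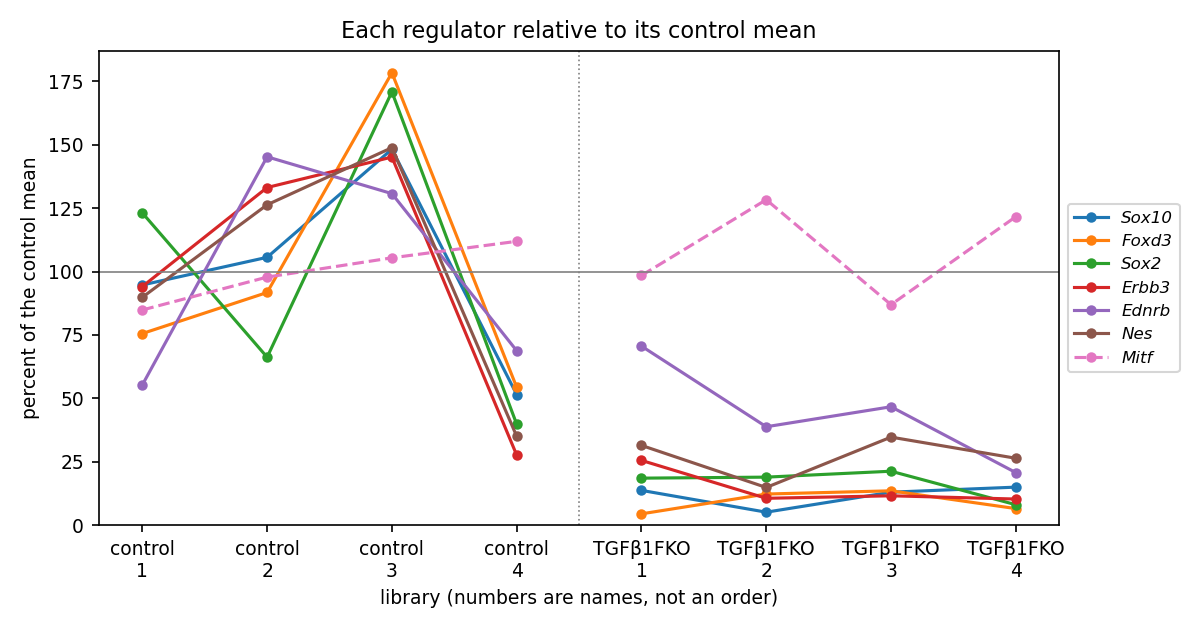
Each gene in each library as a percentage of its own control mean, with 1 coloured line per gene (Mitf dashed) and the horizontal line at 100. Control replicate 3 is above 100 for all 7 genes, control replicate 4 is between 27.7 and 68.8 for the 6 genes other than Mitf, and the TGFβ1FKO libraries lie between 4.53 and 70.6 for these 6.

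Control replicate 4 held 22.3% of the mean of the other 3 controls for Erbb3, 28.9% for Nes, 33.2% for Sox2, 44.4% for Sox10, 47.2% for Foxd3 and 62.3% for Ednrb. Set against this library alone, the TGFβ1FKO mean was still 17.0% of its Foxd3 level and 22.8% of its Sox10 level. For Nes the same figure was 76.6% and for Erbb3 52.6%. Without this library 5 of the 7 genes were called lower, with Sox2, Erbb3 and Nes in addition to Sox10 and Foxd3, while the genes called over the whole table went from 13 to 32. Nothing is read from the 5 calls either, since the 7 genes were chosen from this contrast.

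The genes did not keep fixed proportions, which restates that their log2 fold changes differed. The ratio of Nes to Sox10 was between 1.08 and 1.90 in the controls and between 2.79 and 4.57 in the TGFβ1FKO libraries. For Ednrb to Sox10 the ranges were 0.156 to 0.367 and 0.368 to 2.00, which lay apart by a narrow margin, and for Mitf to Sox10 they were 1.01 to 3.07 and 9.41 to 35. Ratios of Foxd3, Sox2 and Erbb3 to Sox10 overlapped between the groups. Foxd3 to Sox10, for example, was 0.47 ± 0.09 in controls and 0.50 ± 0.45 in TGFβ1FKO fibroblasts (SD, n = 4 each). The ratios in TGFβ1FKO libraries divide by a Sox10 count of 7 to 22 reads.

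Levels of different genes were compared per kb of exon. In controls the mean normalised counts per kb were 45.9 ± 18.2 for Sox10, 34.6 ± 17.2 for Nes, 31.9 ± 3.71 for Mitf, 28.9 ± 15.7 for Foxd3, 17.8 ± 9.41 for Erbb3, 13.3 ± 7.77 for Sox2 and 8.75 ± 3.90 for Ednrb (SD, n = 4 each). No neighbours in this order differed by more than the larger of their SDs. Every one of the 7 stood in the lower part of the table, from the 16.2 percentile of all genes for Ednrb to the 39.4 percentile for Sox10. In TGFβ1FKO fibroblasts Mitf led with 34.7 ± 6.20, and Nes followed with 9.31 ± 3.01, a step wider than either spread. Then came Sox10 with 5.39 ± 2.05, Ednrb with 3.87 ± 1.81, Foxd3 with 2.68 ± 1.27, Erbb3 with 2.59 ± 1.31 and Sox2 with 2.22 ± 0.78. From Sox10 downwards each neighbour again lay within the larger of the SDs.

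**Figure D3:**
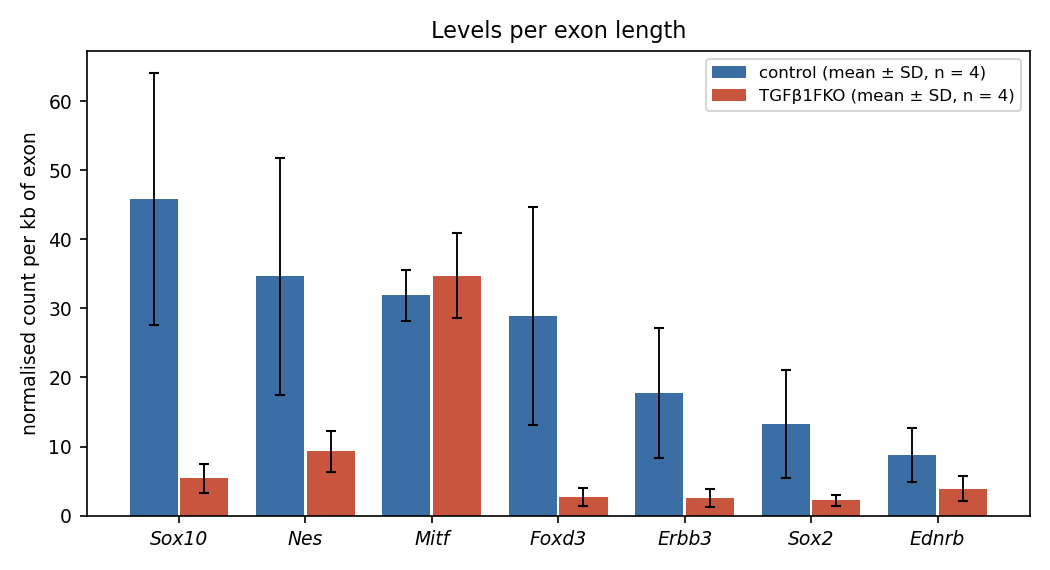
Normalised count per kb of exon for the 7 genes in control (blue) and TGFβ1FKO (red) fibroblasts, as bars of the mean with SD, n = 4 each. Sox10 is the tallest control bar at 45.9 and Mitf the tallest TGFβ1FKO bar at 34.7, and Mitf is the only gene whose red bar is not below its blue bar.

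The genes most like Sox10 across the 8 libraries were found by the root mean square difference between log2 profiles, each centred on its own mean. Fgf5, a fibroblast growth factor, came nearest at 0.18, followed by the Notch target Heyl (0.35), Lingo3 (0.39), the glial gap junction gene Gjc3 (0.39) and the adhesion gene Cadm1 (0.42). Fgf5 had 41.4 normalised counts in controls and 3.97 in TGFβ1FKO fibroblasts. Single TGFβ1FKO libraries lay at 1.04 to 6.65 for Fgf5, 0 to 2.22 for Lingo3 and 0 to 4.98 for Gjc3. A few reads thus set the shape of these profiles there. Of the other 6 genes, Erbb3 was the eleventh nearest at 0.59, and Mitf ranked 12644 at 1.70. The nearest to Foxd3 were Ntm, Zfp536, Kcna6, the cadherin gene Cdh19 and Slitrk6, between 0.56 and 0.67, and Sox2 (0.70) and Sox10 (0.72) came seventh and eighth. These distances describe 8 libraries that share the same difference between groups.

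Related genes were taken from 7 lists, written by hand with earlier results of these data known. They were compared with limma's moderated test, and 0 of the measured members were called in either direction. At an unadjusted p under 0.05 there were 5 in the list of neural crest regulators, 10 in that of glial genes, 1 in that of endothelin genes and 0 in the other 4 lists, against 1127 of all 15111 genes. Of 22 measured neural crest regulators other than the 7, 12 were lower and 10 higher, with a median log2 fold change of -0.05. Those with the lowest unadjusted p were Sox6, a SOX factor of crest-derived glia and cartilage (30.9 ± 17.0 against 5.90 ± 3.33 normalised counts, log2 fold change -2.16, adjusted p = 0.169), Tfap2a (-1.68, adjusted p = 0.426) and Ngfr (-0.65, adjusted p = 0.536).

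Genes that SOX10 is known to act on, early glial markers and related regulators made a list with 21 measured members. Of these, 15 were lower and 6 higher (median log2 fold change -0.10). The list also held genes that are not restricted to glia, such as Pmp22 and Ncam1, so its counts and median are not those of glial genes alone. The 10 with an unadjusted p under 0.05 (limma) were all lower, and Ngfr among them was also counted in the list of neural crest regulators. The groups did not overlap for 6 of the 21, against 2.10% of all genes that were lower without overlap. As the list was written with earlier results of these data known, nothing is read from these counts. Gjc3 had 25.2 ± 8.27 normalised counts in controls and 2.58 ± 2.10 in TGFβ1FKO fibroblasts (log2 fold change -3.09, adjusted p = 0.058, limma). Its TGFβ1FKO libraries lay between 0 and 4.98, around the floor of 3 reads, so this fold change is known only roughly. Cdh19, a cadherin of Schwann cell precursors, had 90.8 ± 47.7 and 14.9 ± 6.78 (-2.44, adjusted p = 0.0799). Gap43, a growth cone protein also found in immature Schwann cells, had 95.3 ± 33.4 and 33.8 ± 8.29 (-1.42, adjusted p = 0.113; SD, n = 4 in each). Control replicate 4 was the lowest control for all 3, at 16.8 for Gjc3, 29.6 for Cdh19 and 51.4 for Gap43, as it was for Sox10 and Foxd3.

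Of 20 listed genes on which MITF is known to act, pigment genes and others, 10 were measured. Dct, Tyr and Tyrp1 were among those not analysed here, so the list says little of pigment genes. Of the 10, 6 were lower and 4 higher, with a median log2 fold change of -0.05. None passed an unadjusted p of 0.05, and the lowest p values belonged to Mlph (-0.27), Cdk2 (-0.12) and Bcl2 (-0.30), each with overlapping groups.

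The pathways of both receptors had medians near 0. Of 11 neuregulin and ERBB genes, 6 were lower and 5 higher (median -0.001). Erbb2, the partner of ERBB3, had 556 ± 61.2 normalised counts in controls and 596 ± 35.7 in TGFβ1FKO fibroblasts (log2 fold change 0.11, adjusted p = 0.81, limma), and the ligand gene Nrg1 had 521 ± 38.3 and 585 ± 107 (0.15, adjusted p = 0.808, limma; SD, n = 4 in each). The widest of these differences was that of Nrg4, at a log2 fold change of -0.96 (adjusted p = 0.671). Of 7 endothelin genes, 3 were lower and 4 higher (median 0.02). Ednra, the other endothelin receptor, had 686 ± 87.1 and 619 ± 66.9 normalised counts (-0.15, adjusted p = 0.76), Edn1 had a log2 fold change of -0.17, and Ece1, which cleaves the endothelin precursors, one of 0.17 (adjusted p = 0.641). Gna11, a G protein subunit, was the only one of them without overlap, and was higher by 0.08.

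Close relatives of the 3 families of factors had 6 measured members, 2 lower and 4 higher (median 0.07). Sox9, the SOX relative of Sox10 that many mesenchymal cells carry, had 933 ± 79.9 and 883 ± 199 normalised counts (log2 fold change -0.10), and Foxd1 and Foxd2 had log2 fold changes of -0.05 and 0.30. Relatives of Mitf stood at 0.41 (Tfec), 0.05 (Tfe3) and 0.08 (Tfeb). The other intermediate filament genes had 4 lower and 2 higher of 6 (median -0.12), with the lowest p values for Lmna (0.11), Lmnb2 (-0.18) and Vim (0.10). Vim, the main filament of fibroblasts, stood at 69830.3 and 75030.1 normalised counts, beside 222 and 59.8 for Nes.

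**Figure D4:**
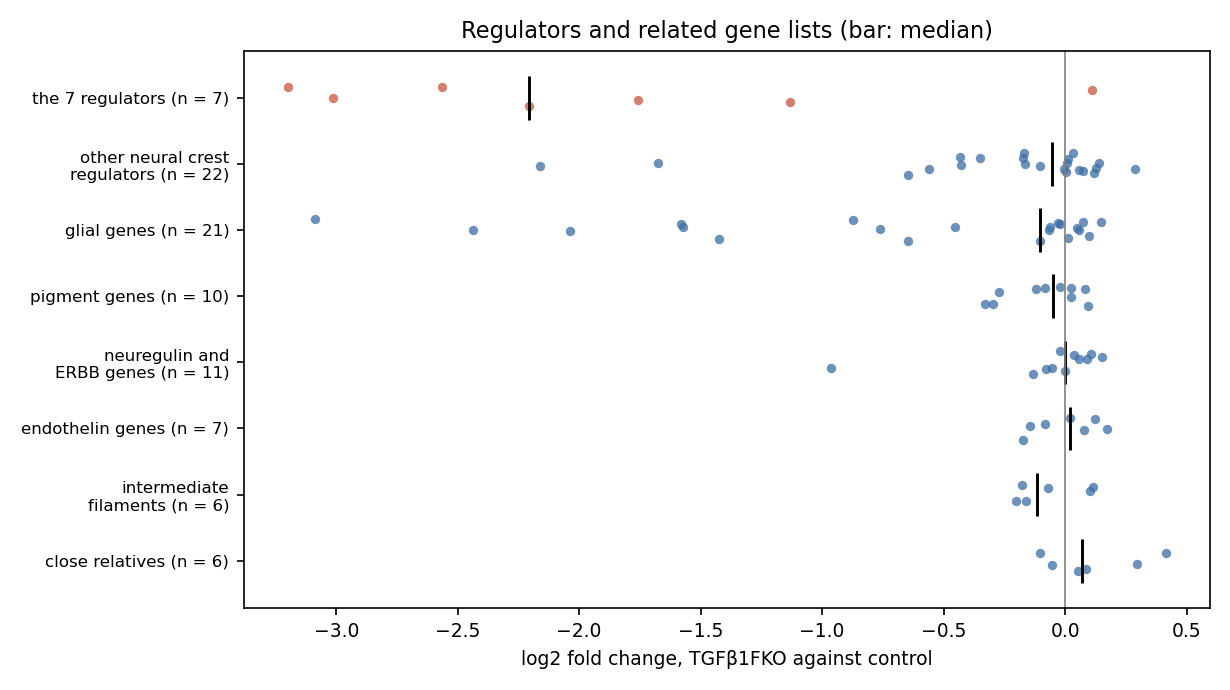
Log2 fold change of TGFβ1FKO against control for the 7 genes (red) and for the measured members of the 7 related lists (blue), 1 point per gene, with a vertical bar at each median. Medians of the related lists lie between -0.12 and 0.07, and single points below -1.4 occur only among the 7 genes, the other neural crest regulators and the glial genes.

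Markers of other cell types that could be present in the cultures were summed per library. Of 12 Schwann cell markers 9 were measured, and 6 of these were lower (median log2 fold change -0.10). All of these markers were also in the list of glial genes above, so they are a part of that list and not a separate set. The groups did not overlap for 2 of the 9, against 2.10% of all genes that were lower without overlap. These were L1cam and S100b, both named after their values were seen. L1cam had 56.3 to 196 normalised counts in controls and 39.4 to 47.6 in TGFβ1FKO libraries, and S100b had 41.5 to 58.8 and 17.6 to 38.8. As the markers were chosen with earlier results of these data known, nothing is read from the 2. The sum of the 9, set mostly by Pmp22 and Ncam1, which are not restricted to glia, was 12387 to 13173 in controls and 11260 to 13392 in TGFβ1FKO libraries. Mag and Gjb1 were among those not analysed here. Of 8 melanocyte markers only Pmel and Mlana were measured (Dct, Tyr and Tyrp1 were not analysed here). Their sums were 43.6 to 112 in controls and 33.4 to 59.8 in TGFβ1FKO libraries. The highest sum was in control replicate 4, where Mlana stood at 88.9 and Mitf was also the highest of the controls. Pmel was instead highest in control replicate 1 (31.0), where Mitf was the lowest of the controls. Among TGFβ1FKO libraries the sum was highest in replicate 4 and Mitf in replicate 2.

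All 10 endothelial markers were measured and all 10 were lower (median log2 fold change -0.55), although none was called and none was without overlap. They summed to between 851 and 1108 in control replicates 1 to 3, to 680.5 in control replicate 4, where the glial regulators were also low, and to between 688 and 719 in TGFβ1FKO libraries. The sum of the neuronal markers (3 of 8 measured), set mostly by Tubb3, was also lowest in control replicate 4, at 419.7, but ranged from 428 to 798 in TGFβ1FKO libraries. Only 1 of the 3 had its lowest control value in that library. The remaining lists overlapped or differed little in their sums: macrophage 563 to 653 and 379 to 621, skeletal muscle 582 to 991 and 703 to 939, pericyte 19724 to 23214 and 20141 to 22176, and adipocyte 3424 to 5698 and 3920.2 to 6092. The lowest skeletal muscle sum, 582, was also that of control replicate 4. Keratinocyte sums were 113 to 116 in control replicates 1 to 3, 152 in control replicate 4 and 148 to 173 in TGFβ1FKO libraries, and the sums of the fibroblast markers overlapped between the groups. The part that the cell makeup of the cultures had in the levels of the 7 genes was not tested.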

How the data were processed

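Bulk RNA-seq of 4 control and 4 TGFβ1FKO libraries was analysed, grouped by the genotype in the labels. Per the labels the libraries were poly-A selected and non-directional. The authors aligned reads with HISAT2 2.0.5 to GRCm38, counted them with featureCounts 1.5.0-p3 and normalised with DESeq2 1.42.0 in R 4.3.2, and the submitters' processing notes also name CASAVA 1.8. For 15111 genes, each with at least 41 reads in all, the authors deposited normalised counts (a signal without negative values), made by dividing reads by a size factor and adding 0.5. The authors also deposited log2 fold changes, a score (the test statistic) and p-values of their own comparison, and none of these was used.

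After removal of the 0.5, a pseudocount of 1 was added, which understates changes of low genes. The groups were then compared on the log2 scale with limma 3.58.1 (R 4.3.3), using its mean-variance trend and Benjamini-Hochberg adjustment over all 15111 genes. The call thresholds were an adjusted p of 0.05 and a log2 fold change of 0.6 in either direction. SEs are those of limma. The test was tested on simulated data. Reads were recovered as whole multiples within 0.05 of a read. The floor of 3 reads allows for counting error alone, as PCR copies of 1 molecule are not independent. As reads were not assigned to a strand, antisense reads cannot be told apart. Positions and exon lengths are from GENCODE M21 (GRCm38), which held 15105 of the IDs, and promoters from RefSeq.

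The 7 genes and all lists were chosen with earlier results of these data known. The genes named are these 7, Tgfb1, any measured receptor-pathway gene or close relative, the 3 genes with the lowest unadjusted p of each other list (or its called genes), the 5 profiles nearest to Sox10 and to Foxd3, and overlapping genes. Alternatives covered a minimum of 10 reads, pseudocounts of 0.5 and 5, a block for the replicate number, and omission of each library in turn. Scaling to the 75th percentile, no trend, and a test against 0.6 were chosen after seeing the data.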

Additional observations from a re-analysis of the deposited data

Results flagged for a closer look

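Erbb3 stood at 27.4 normalised counts in TGFβ1FKO replicate 1, whereas the other 3 TGFβ1FKO libraries lay between 11.1 and 12.5. The gap to the nearest of the others took up 0.916 of the whole range of the group, above the critical value of Dixon's test for 4 samples. It was the only such value among 16 groups of 4 libraries examined (the 7 genes and Tgfb1, in each group), where chance gives about 1 in 20.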

How the results depend on the processing

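The log2 fold changes of the 7 genes kept their direction and moved by less than 1 SD in every alternative in which they were tested. Much of this was fixed in advance. The read minimum, the replicate block, the fit without trend and the test against 0.6 cannot change a log2 fold change. For the 5 genes without overlap, no left-out library or pseudocount could reverse the direction. Over the alternatives the log2 fold changes ran from -3.30 to -2.69 for Sox10, -3.44 to -2.60 for Foxd3 and -2.56 to -1.63 for Sox2. For Erbb3 they ran from -3.09 to -2.30, for Ednrb from -1.39 to -0.84, for Nes from -2.19 to -1.50 and for Mitf from 0.03 to 0.21. Tgfb1 was called in all 15 alternatives, at -2.40 to -2.23. Calls moved more. Of the 7 genes, 2 were called in limma's test with the trend and 0 without it. With at least 10 reads in every library 0 were called, but Sox10, Foxd3, Sox2 and Ednrb were then not tested. With a library left out, 2 to 5 were called, 5 without control replicate 4 (Sox2, Erbb3 and Nes in addition) and 3 without TGFβ1FKO replicate 1. Over all genes, 13 calls became 3 with the read minimum, 2 without the trend and 4 in the test against 0.6, and 5 to 32 with a library left out: 32 without control replicate 4, 7, 6 and 5 without control replicates 1, 2 and 3, and 5 without TGFβ1FKO replicate 2 or 4. Of the related lists, 0 genes were called, 1 with a pseudocount of 5 (Gjc3) and 0 to 3 with a library left out (3 without control replicate 4 and 2 without TGFβ1FKO replicate 3). Apart from the fewer genes tested under the read minimum, the cause was not tested.

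With the replicate block as a term, 31 genes were called, 4 of them among the 7 (Sox2 and Erbb3 in addition) and 4 among the related lists (Cdh19, Gjc3, L1cam and Moxd1, the last pair named after their values were seen). Deviations of libraries with the same number correlated by 0.156, -0.134, 0.052 and 0.159. No control library correlated best with the TGFβ1FKO library of its own number. These correlations cannot tell whether libraries of the same number were handled together. The edgeR, DESeq2 and TMM alternatives were not run. Depth limits Foxd3 and Sox2 in TGFβ1FKO libraries, with 2 to 11 reads each.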
